A study of Mus musculus with 18 samples.

Results

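T cell and cytotoxic lymphocyte transcripts were followed in the back skin of 18 FVB mice aged 6 months. The 33 genes were rows of the expression table whose symbol was on a list of T cell receptor, co-receptor, signalling, costimulatory, regulatory, cytotoxic and tissue residence genes, out of 55357 genes in all. Bulk RNA sequencing had been done on 6 WT mice, on 6 transgenic N-IKKα mice, whose exogenous IKKα is placed in keratinocyte nuclei, and on 6 transgenic C-IKKα mice, whose exogenous IKKα is placed in keratinocyte cytoplasm. The IKKα kinase, which acts in NF-kB signalling, is encoded by Chuk. The transgene was placed in keratinocytes and not in T cells, the promoter that drives it is not given in the sources used here, and each mouse was 1 library.

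T cells recognise antigen through a receptor of an alpha and a beta chain or of a gamma and a delta chain, which signals through the CD3 subunits and the zeta chain. Mouse epidermis holds a resident network of gamma-delta T cells, while alpha-beta T cells, among them CD4 regulatory cells near the hair follicle and CD8 cells, sit mostly in the dermis and around follicles. Hair follicles cycle between growth and rest, and in growth they express keratins of the hair shaft and inner root sheath. In bulk skin, fewer T cells and less RNA per T cell cannot be told apart.

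Libraries held 11.1 to 15.7 M counted reads (M for 10 to the power of 6). Chuk had 851 to 1267 normalized counts in WT, 804 to 1050 normalized counts in N-IKKα and 853 to 934 in C-IKKα, so its level was not raised with the transgene. No source used here says which sequence the transgene carries, so reads from it need not be counted as Chuk. The mean log2 value of 23 hair shaft and inner root sheath genes was 10.50 to 12.63 in 6 libraries and 2.45 to 5.80 in the other 12. These are samples divided by their own hair genes, and they are not groups of the study. None of the hair genes is among the listed T cell genes, but Lef1 is also on a further list of T cell transcription factors. The 6 high-hair libraries were WT 1 and 4, N-IKKα 8, 9 and 11, and C-IKKα 14, so the hair state was spread unevenly over the genotypes. All 6 were read as female from the Y-linked gene Ddx3y, while the 12 low-hair libraries held 4 female and 8 male mice. Depth was close to even between hair states, with a median of 13.1 M reads in the high-hair and 12.6 M in the low-hair libraries. Between genotypes it was less even, with 11.15 to 12.63 M in WT, 12.00 to 14.61 M in N-IKKα and 12.65 to 15.69 M in C-IKKα. Each WT library thus had fewer reads than each C-IKKα library.

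The receptor beta chain has a pair of constant region genes, Trbc1 and Trbc2, on chromosome 6, and their sequences are shown because they decide which reads can be assigned to one of them. In the earlier mouse build GRCm38, Trbc1 lies at chr6:41538218-41539881 and Trbc2 at chr6:41546730-41548352, both on the plus strand. Over 518 coding bases 1 transcript of each gene differed at 23 positions. The first 360 coding bases held 1 of these differences and the last 158 held 22. The last 158 bases are given, 5′ to 3′, with the differing bases in capitals.
Trbc1: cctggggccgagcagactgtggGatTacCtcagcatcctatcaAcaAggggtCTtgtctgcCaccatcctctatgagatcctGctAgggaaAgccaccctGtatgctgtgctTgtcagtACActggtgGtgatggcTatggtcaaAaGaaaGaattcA
Trbc2: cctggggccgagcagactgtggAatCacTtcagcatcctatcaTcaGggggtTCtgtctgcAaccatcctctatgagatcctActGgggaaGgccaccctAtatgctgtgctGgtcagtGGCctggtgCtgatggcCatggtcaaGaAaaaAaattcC
Reads from the shared stretch could be split between both genes or lost, depending on the counting, so values of each gene alone are uncertain.

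Promoters are shown for the 3 CD3 and zeta chain genes with the smallest p-values between hair states and for Cd8a, the tested gene with the largest fold. RefSeq promoters of build GRCm38.p6, 250 bases before to 50 bases after the start, were at hand for 18 of the 33 genes. They are written 5′ to 3′ in the direction of transcription, with matches to 4 short motifs in capitals, read on either strand. For Ets factors the letters searched were AGGAA, and for Runx factors TGTGGT. For TCF and LEF factors they were CTTTGA, and for GATA factors AGATAA. The stretches lie at chr1:165788431-165788730 on the plus strand for Cd247, at chr9:45009562-45009861 on the minus strand for Cd3e, at chr9:44980382-44980681 on the minus strand for Cd3g and at chr6:71373177-71373476 on the plus strand for Cd8a.
Cd247: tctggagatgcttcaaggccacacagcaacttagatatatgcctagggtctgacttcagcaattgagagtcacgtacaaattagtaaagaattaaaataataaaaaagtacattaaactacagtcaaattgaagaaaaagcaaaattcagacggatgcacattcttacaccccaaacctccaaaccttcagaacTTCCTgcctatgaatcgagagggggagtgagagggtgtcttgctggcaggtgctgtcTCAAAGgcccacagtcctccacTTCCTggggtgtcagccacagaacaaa
Cd3e: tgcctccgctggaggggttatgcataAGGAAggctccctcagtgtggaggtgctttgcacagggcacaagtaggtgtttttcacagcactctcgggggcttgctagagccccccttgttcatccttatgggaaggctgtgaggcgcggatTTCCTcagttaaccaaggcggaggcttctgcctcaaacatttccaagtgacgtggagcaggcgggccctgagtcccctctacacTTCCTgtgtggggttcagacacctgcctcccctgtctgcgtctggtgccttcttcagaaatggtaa
Cd3g: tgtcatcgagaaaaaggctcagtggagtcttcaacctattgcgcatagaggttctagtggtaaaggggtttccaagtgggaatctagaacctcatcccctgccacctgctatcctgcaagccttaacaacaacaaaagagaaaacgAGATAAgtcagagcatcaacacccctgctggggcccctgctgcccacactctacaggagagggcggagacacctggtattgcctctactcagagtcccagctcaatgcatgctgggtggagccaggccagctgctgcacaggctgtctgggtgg
Cd8a: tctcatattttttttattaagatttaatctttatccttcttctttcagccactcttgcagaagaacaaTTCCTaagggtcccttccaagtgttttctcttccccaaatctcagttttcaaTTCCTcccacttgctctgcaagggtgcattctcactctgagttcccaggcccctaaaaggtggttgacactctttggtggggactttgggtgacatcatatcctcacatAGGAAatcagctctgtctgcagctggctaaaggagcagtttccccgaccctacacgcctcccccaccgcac
The Ets letters matched 2 times in Cd247, 3 times in Cd3e, 3 times in Cd8a and 0 times in Cd3g, which held 1 GATA match. The TCF/LEF letters matched 1 time, in Cd247, and the Runx letters matched in none of the 4. Such letters are common: of 32851 promoters of this length, 66.7% held the Ets letters, 16.8% the Runx letters, 16% the TCF/LEF letters and 11.2% the GATA letters. Among the 18 promoters of the listed genes, 14 held the Ets, 8 the Runx, 6 the TCF/LEF and 1 the GATA letters. A match describes the letters in this window and is not a bound site.

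Of the 33 genes, 24 had 10 or more normalized counts in 6 or more libraries and were tested. Gzma and Gzmb, which encode the granule proteases granzyme A and B, the chemokine gene Ccl5 and the CD8 beta chain gene Cd8b1 stayed below that level. The remaining 5 were listed at 0 in every library. They were Foxp3, the defining factor of regulatory T cells, Cd7, Cd27, Il2rg, the common cytokine receptor gamma chain, and the chemokine gene Xcl1. A value of 0 allows up to 3 reads, or 2.45 to 3.61 normalized counts depending on the library, for counting error only. In all, 26648 genes of the table were at 0 throughout, among them B2m, which every nucleated cell uses, so a 0 here says only that the gene is listed at 0. In an annotation of the earlier build, all 5 of these genes shared exon sequence with another gene, as did 4 of the other 28. B2m, also at 0, shared none, and Cd7 and Xcl1 shared it only with genes on the opposite strand. Why these genes are at 0 was not tested. The regulatory T cell factor, at 0, could not be compared, and of the CD8 receptor only the alpha chain could.

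Levels per kb of exon, with exon lengths from that annotation, put the receptor chains in order in the 12 low-hair libraries. Trbc2 had a median of 157 normalized counts per kb, Trbc1 139 and the gamma chain gene Trgc1, which is not on the list, 139. The gamma chain gene Trgc4 followed with 73.6 per kb, then the CD3 and zeta chain genes Cd247 with 56.5, Cd3e with 54.6 and Cd3g with 50.6 per kb. The gamma chain gene Trgc2 had 44.3 per kb. Cd3d, with 17.4 per kb, and the alpha chain gene Trac, with 16.5, were lower, and the delta chain gene Trdc had 6.02 per kb. The annotated exon length was 3.865 kb for Trdc against 0.935 kb for Trac and 0.924 kb for Trgc1. The order depends on these lengths. The ranges of Trbc1, Trbc2 and Trgc1 overlapped, as did those of Cd247, Cd3e and Cd3g, so the order within each of these sets did not exceed the spread between libraries. The co-receptor gene Cd4 had a median of 23.7 per kb against 3.95 for Cd8a, and the ranges of these genes, 11.4 to 40.0 and 0.321 to 11.0, did not overlap. Gamma chain constant genes resemble each other, so their split is as uncertain as that of the beta chains.

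**Figure D1:**
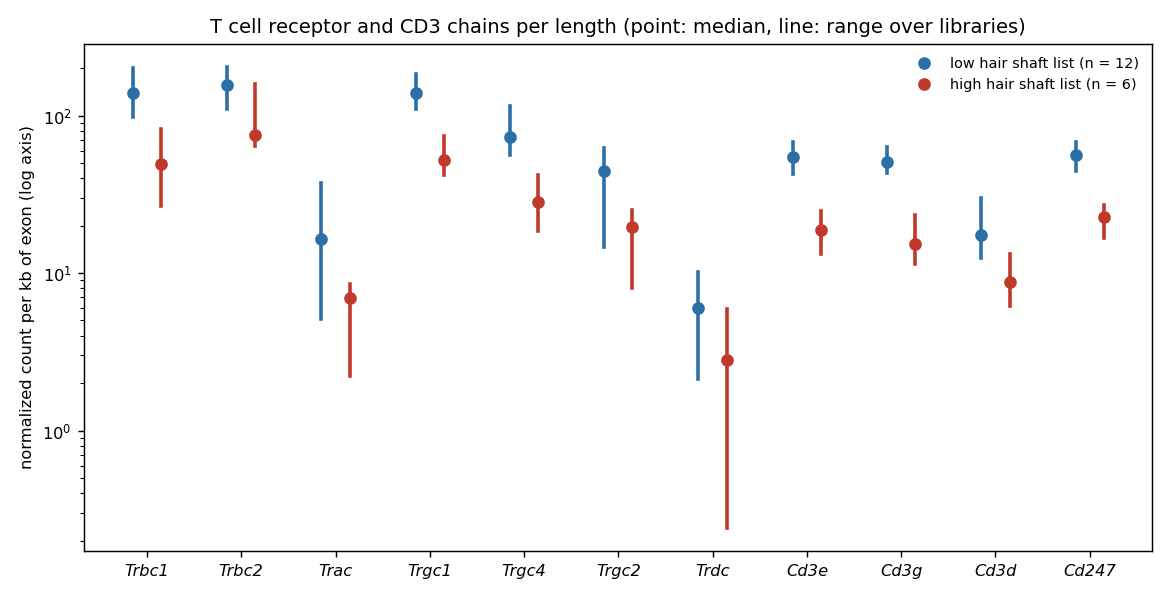
Normalized counts per kb of exon (vertical, log axis) for T cell receptor constant chains and CD3 and zeta chain genes, with points for the median and lines for the lowest to highest library. Each gene has a lower median in the 6 high-hair libraries (red) than in the 12 low-hair libraries (blue), for example 49.6 against 139 for Trbc1, and Trac lies well below the beta chains in both.

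Between hair states the T cell genes differed as a body. In high-hair skin 23 of the 24 tested genes were lower and none was higher, beside 26.3% of all 17667 tested genes called lower and 25.2% called higher. The median log2 fold change of the 24 was -1.23, against -0.01 over all genes tested, and they ran from -2.03 for Cd8a to -0.45 for Lck, the one gene not called. For 9 genes no high-hair library reached the lowest low-hair library, a pattern that 5.25% of all tested genes showed in this direction. The 24 are the genes that passed a filter on low values, and 18 of them reached 10 also in all 6 high-hair libraries. Trac, Cd8a, Trdc, Zap70, Cd5 and Cd69 did not. They passed through the low-hair libraries, where they were higher, so their calls give no separate support. Each high-hair library was among the 6 lowest of 18 for 14 to 23 of the 24 genes, and each low-hair library for 0 to 8. The highest library was a low-hair one for 24 of 24 genes.

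**Figure D2:**
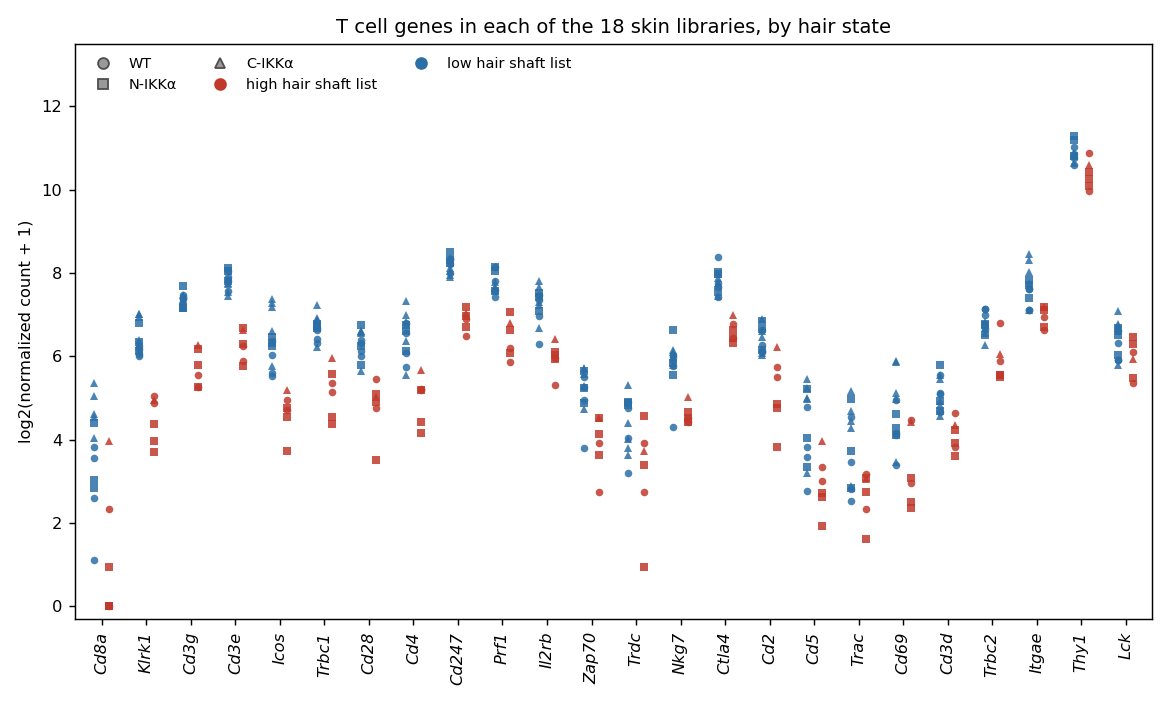
Log2(normalized count + 1) of the 24 tested T cell genes (vertical) in each of 18 libraries, ordered from the largest to the smallest fold between hair states. High-hair libraries (red, n = 6) lie below low-hair libraries (blue, n = 12) with no overlap for 9 genes, among them Cd3e and Klrk1, while those of Lck and Thy1 overlap.

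The CD3 and zeta chain genes, whose products carry the receptor's signal, were lower in high-hair skin in 4 of 4 cases. Over all tested genes, 26.3% were called lower. Cd3e ran from 54.0 to 101 normalized counts (median 76.3) in the 6 high-hair libraries and from 174 to 278 (median 223) in the 12 low-hair libraries. Cd3g ran from 37.3 to 76.7 (median 50) and from 141 to 207 (median 165) in the same order. Both genes separated the libraries without overlap. The log2 fold change was -1.59 ± 0.14 (SE) for Cd3e, with an adjusted p of 1.24e-07, and -1.63 ± 0.16 for Cd3g, with an adjusted p of 2.17e-07. Cd247, the zeta chain gene, ran from 88.7 to 144 (median 121) in high-hair and from 239 to 364 (median 301) in low-hair libraries, again without overlap, and fell by 1.37 ± 0.11 on the log2 scale with an adjusted p of 3.03e-08. In the earlier annotation, 56.4% of its exon length is also covered by exons of Pou2f1 on the opposite strand, and the strand setting of the counting is not given in the sources used here. Cd3d was less abundant, with 11.2 to 24 (median 16.0) against 22.7 to 54.6 (median 31.5) normalized counts, and its ranges overlapped. It fell by 0.98 ± 0.23 with an adjusted p of 0.00195.

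Alpha-beta receptor and co-receptor genes were lower in 5 of 5 tested cases, beside 26.3% of all tested genes called lower. Among them, Trac reached 10 normalized counts in 0 high-hair and 8 low-hair libraries, and Cd8a in 1 and 8. Both passed the filter through the libraries where they were higher, so their calls give no separate support. Trbc1 ran from 19.9 to 61.2 (median 37.1) in high-hair and from 73.4 to 151 (median 104) in low-hair libraries, and both sets of libraries did not overlap. Trbc2 ran from 44.5 to 110 (median 52.1) and from 76.0 to 141 (median 109), so its libraries overlapped. Their log2 fold changes were -1.43 ± 0.20 and -0.84 ± 0.15. Cd4, the co-receptor of helper and regulatory T cells that macrophages and dendritic cells can also express, ran from 17.0 to 49.8 (median 35.4) in high-hair and from 45.9 to 161 (median 95.5) in low-hair libraries. It fell by 1.40 ± 0.26 with an adjusted p of 0.000275. Trac was low throughout, with 2.09 to 7.99 (median 6.51) against 4.77 to 34.9 (median 15.4), and its fold of -1.05 ± 0.42 passed narrowly, with an adjusted p of 0.0433 that was above 0.05 when any 1 of 12 libraries was left out and in female mice alone.

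Cd8a, which encodes the CD8 alpha chain of cytotoxic T cells, showed the largest fold and the widest spread. Normalized counts in the high-hair libraries were 4.03 and 0 in WT 1 and 4, 0.932, 0 and 0 in N-IKKα 8, 9 and 11, and 14.7 in C-IKKα 14. The 12 low-hair libraries ran from 1.17 to 40.2, with a median of 14.4. The C-IKKα library was thus the high one among the high-hair samples and stood above the low-hair median. The log2 fold change was -2.03 ± 0.50 with an adjusted p of 0.00247, and with sex as a further term it was -1.40 ± 0.59 with an adjusted p of 0.0672. Cd8b1, the beta chain of the same receptor, had at most 6.85 normalized counts in high-hair and 16.1 in low-hair libraries, with means of 3.97 ± 1.78 (SD, n = 6) and 4.54 ± 4.86 (SD, n = 12), and was not called when all genes were tested. On the log2 scale its difference had the opposite sign to that of Cd8a, at 0.80 ± 0.50 with an adjusted p of 0.252.

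For gamma-delta T cells, Trdc ran from 0.932 to 23.0 (median 10.9) in high-hair and from 8.18 to 39.1 (median 23.3) in low-hair libraries, with wide overlap. It fell by 1.22 ± 0.46 with an adjusted p of 0.0334, and with sex as a further term the fold was -0.95 with an adjusted p of 0.2. The call was also lost when any 1 of 7 libraries was left out. Trdc passed the filter through the low-hair libraries, where it was higher, so its call gives no separate support. The gamma chain gene Trgc1 had higher counts, although its split from the other gamma chain constant genes is uncertain. Trgc1 had a mean of 49.0 ± 10.9 (SD, n = 6) normalized counts in high-hair and 130 ± 19.6 (SD, n = 12) in low-hair libraries, and its highest high-hair value, 68.5, lay below its lowest low-hair value, 102. It fell by 1.43 ± 0.14 with an adjusted p of 3.21e-07. Over all tested genes, 26.3% were called lower and 25.2% higher. Among 10 tested genes of a list for gamma-delta and IL-17-producing T cells, 7 were lower and 2 higher in high-hair skin. Their median log2 fold change was -0.95. The lower ones included Trgc4 (-1.49) and Skint1 (-0.90), a keratinocyte gene needed for epidermal gamma-delta T cells. Those higher were Sox13 (1.18) and the IL-23 receptor gene Il23r (1.33), so the list did not move as 1 block. The variable segment genes Trgv4, Trgv5, Trgv6 and Trdv4 and the cytokine gene Il17a were listed at 0.

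Among proximal kinases and pan-T surface proteins, 4 of 5 tested genes were lower, beside 26.3% of all tested genes called lower. Zap70 and Cd5 passed the filter through the low-hair libraries, where they were higher, so their calls give no separate support. Zap70, the kinase that binds the phosphorylated zeta chain, ran from 5.71 to 22.0 (median 15.4) in high-hair and from 12.9 to 51.9 (median 37.7) in low-hair libraries. Lck, the kinase that acts before it, ran from 40.3 to 87.1 (median 64.4) and from 54.2 to 135 (median 93.7), and its fold of -0.45 ± 0.21 had an adjusted p of 0.0827, and it was called when C-IKKα 15 was left out. Zap70 fell by 1.24 ± 0.28, and the libraries of both genes overlapped between hair states. Cd2, an adhesion receptor, ran from 13.2 to 74.3 (median 36.3) against 64.9 to 119 (median 82.0) and fell by 1.13 ± 0.26. Cd5, which dampens receptor signals, ran from 2.84 to 14.7 (median 6.32) against 5.84 to 43.0 (median 20.9) and fell by 1.11 ± 0.39, a call lost without N-IKKα 9 or N-IKKα 10. Thy1, which skin cells other than T cells also express, was far more abundant, with 1008 to 1892 (median 1307) against 1557 to 2504 (median 1857) normalized counts, and fell by the small amount of 0.53 ± 0.13. The ranges of Cd2, Cd5 and Thy1 each overlapped between hair states.

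Further genes of receptor signal transduction followed the same direction. Of 22 tested genes on that list 17 were lower and 1 was higher, with a median of -0.96. The shares over all tested genes were 26.3% lower and 25.2% higher. Trat1, an adaptor of the receptor complex, fell by 1.57 ± 0.13 and the adaptor gene Grap2 by 1.22 ± 0.13. Ptprc, which encodes CD45 of all leukocytes, fell by 0.91 ± 0.17. The higher gene was Csk, the kinase that restrains Lck and that most cells express, with a log2 fold change of 0.25.

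Cytokine receptor and costimulatory genes were lower in 4 of 4 tested cases, beside 26.3% of all tested genes called lower. Il2rb, the receptor chain shared by IL-2 and IL-15, ran from 38.8 to 84.0 (median 63.1) in high-hair and from 78.3 to 223 (median 160) in low-hair libraries and fell by 1.26 ± 0.19. Icos, an inducible costimulator, ran from 12.3 to 35.9 (median 25.6) against 45.3 to 166 (median 80.5) and fell by 1.58 ± 0.25. The libraries of Icos did not overlap between hair states, whereas those of Il2rb did. Cd28, the main costimulatory receptor, ran from 10.4 to 43.3 (median 30.5) against 49.6 to 107 (median 81.1) and fell by 1.43 ± 0.24. Ctla4, the inhibitory receptor abundant in regulatory T cells, ran from 78.5 to 126 (median 92.9) against 172 to 334 (median 216) and fell by 1.18 ± 0.14 with an adjusted p of 3.38e-06. Both separated the hair states without overlap.

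With Foxp3 listed at 0, regulatory T cells were described by other genes. Of 7 tested genes on a regulatory T cell list, 5 were lower in high-hair skin and 1 was higher, with a median of -0.91. The shares over all tested genes were 26.3% lower and 25.2% higher. Il2ra, the high-affinity IL-2 receptor chain, had a mean of 41.4 ± 16.7 (SD, n = 6) against 115 ± 25.7 (SD, n = 12) normalized counts and fell by 1.40 ± 0.21. Ikzf2, which encodes Helios, fell by 1.08 ± 0.13 and Tigit by 0.91 ± 0.30. Areg, a growth factor gene that epithelial cells also express, was the higher one, with a log2 fold change of 2.16.

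Cytotoxic genes that could be tested were lower in 3 of 3 cases, beside 26.3% of all tested genes called lower. Prf1, the pore-forming perforin gene, ran from 57.5 to 132 (median 85.6) in high-hair and from 172 to 284 (median 201.1) in low-hair libraries and fell by 1.36 ± 0.16 with an adjusted p of 2.03e-06. Klrk1, the gene of the activating receptor NKG2D, ran from 12.1 to 32.3 (median 24.2) against 63.1 to 128 (median 78.6) and fell by 1.81 ± 0.21 with an adjusted p of 1.57e-06. Neither gene overlapped between hair states. Nkg7, a granule membrane gene, ran from 20.5 to 31.8 (median 22.0) against 18.7 to 98.6 (median 61.7) and fell by 1.2 ± 0.24, with the low-hair library WT 5, at 18.7, below all high-hair libraries. Gzmb ran from 0.946 to 4.03 (median 2.62) against 1.03 to 11.3 (median 5.93), Ccl5 from 1.04 to 8.16 (median 3.73) against 0 to 15.4 (median 8.38), and Gzma from 0 to 5.59 against 0 to 15.1. None of the 4 genes below the filter was called in any comparison when all genes were tested without it. Of 10 tested genes on a wider list for natural killer and cytotoxic cells 6 were lower, with a median of -1.08, led by the NK receptor gene Klrd1, which fell by 1.52 ± 0.12.

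The tissue residence genes were also lower, beside 26.3% of all tested genes called lower. Itgae, which encodes the CD103 integrin that binds E-cadherin of keratinocytes, ran from 98.8 to 145 (median 130) in high-hair and from 138 to 351 (median 203) in low-hair libraries and fell by 0.65 ± 0.17 with an adjusted p of 0.00424. Cd69, an early activation and retention marker, ran from 4.17 to 21.2 (median 7.15) against 9.53 to 58.2 (median 21.1) and fell by 1 ± 0.38 on the log2 scale with an adjusted p of 0.0337, a call lost when any 1 of 7 libraries was left out. Both overlapped between hair states. Cd69 passed the filter through the low-hair libraries, where it was higher, so its call gives no separate support.

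Since all high-hair mice were female, sex and hair state were set side by side. With sex as a further term 20 of the 24 genes were called lower, beside 21% of all tested genes. The genes no longer called besides Lck were Cd8a, Trdc and Cd5. In the 10 female libraries alone, 6 high-hair and 4 low-hair, 15 genes were called lower, beside 12.3% of all tested genes. Those not called there were Lck, Trac, Trbc2, Cd8a, Trdc, Zap70, Cd5, Thy1 and Cd69. Cd3e had a mean of 233 ± 37.9 (SD, n = 4) normalized counts in low-hair females, 221 ± 31.8 (SD, n = 8) in low-hair males and 77.5 ± 19.7 (SD, n = 6) in high-hair females. Cd8a had means of 9.03 ± 10.0, 20.2 ± 11.2 and 3.28 ± 5.80 in the same order. Of the 8 low-hair males 4 were C-IKKα, 2 WT and 2 N-IKKα, and of the 4 low-hair females 1 was C-IKKα, 2 WT and 1 N-IKKα, so these means mix sex with genotype. With genotype and hair state as terms the smallest adjusted p of any of the 24 genes between male and female mice was 0.639.

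Within each genotype the direction was the same for Cd3e. Its high-hair and low-hair means were 66.9 and 229 in WT (2 and 4 libraries), 77.5 and 255 in N-IKKα (3 and 3 libraries), and 98.7 and 204 in C-IKKα (1 and 5 libraries). No library of either kind crossed over in any genotype. An interaction of hair state with genotype, added after the data were seen, gave a smallest adjusted p over the 24 genes of 0.547 for N-IKKα against WT and 0.203 for C-IKKα against WT. With 1 high-hair library in C-IKKα, that term rests on 1 mouse.

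Markers of other skin cells were set beside the 26.3% of all tested genes called lower and the 25.2% called higher in high-hair skin. Of the Langerhans and dendritic cell markers 9 of 10 tested were lower in high-hair skin, with a median of -1.2 and a summed level of 4066 to 8690 normalized counts against 8512 to 17872 in low-hair skin. Macrophage and monocyte markers were lower in 6 of 9 tested cases (median -0.71), with sums of 4307 to 17006 against 8513 to 16996 and with Itgam listed at 0. Fibroblast markers were lower in 4 of 5 cases (median -1.47), with sums of 21264 to 49830 against 35690 to 331866. B and plasma cell markers were lower in 3 of 4 tested cases (median -1.76), with sums of 267 to 889 against 804 to 3438 and with Ms4a1, Igkc and Mzb1 listed at 0. Keratinocyte markers were lower in 2 of 5 cases (median -0.22), and mast cell markers in 1 of 6, with 1 of 6 higher. The part of these other cells, and of the share that growing follicles take of the RNA, in the difference of the T cell genes was not tested. The hair list itself held 0.560% to 2.10% of all reads in high-hair libraries and at most 0.0489% in low-hair ones.

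Genes that draw or sustain T cells were lower as well, beside 26.3% of all tested genes called lower. Of 11 tested chemoattractant and receptor genes 7 were lower, with a median of -0.89, among them the skin-homing chemokine gene Ccl27a (-0.52), Ccr4 (-0.99) and Ccr6 (-1.46). Cytokines and receptors of T cell survival were lower in 5 of 6 cases (median -0.84), including Il7 (-1.03) and Il15 (-0.34). Genes of class I antigen presentation were lower in 8 of 8 tested cases (median -0.93), led by the immunoproteasome gene Psmb9 (-1.34), with B2m listed at 0. Checkpoint receptors and ligands were lower in 4 of 9 cases (median -0.91). T cell transcription factors were mixed, with 4 lower and 3 higher of 11 and a median of -0.24. Those higher included Lef1, which is also on the hair list that divided the libraries, so its direction followed from that division. Of 4 tested neutrophil markers 1 was higher (median 1.22), close to the 25.2% of all tested genes called higher. Their sum had a median of 112 in the high-hair and 122 in the low-hair libraries, with 1 high-hair WT library at 2343. The markers of a lymph node were lower in 3 of 3 tested cases (median -1.47), and the thymocyte markers summed to at most 7.57 normalized counts, with Rag1 and Rag2 listed at 0.

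**Figure D3:**
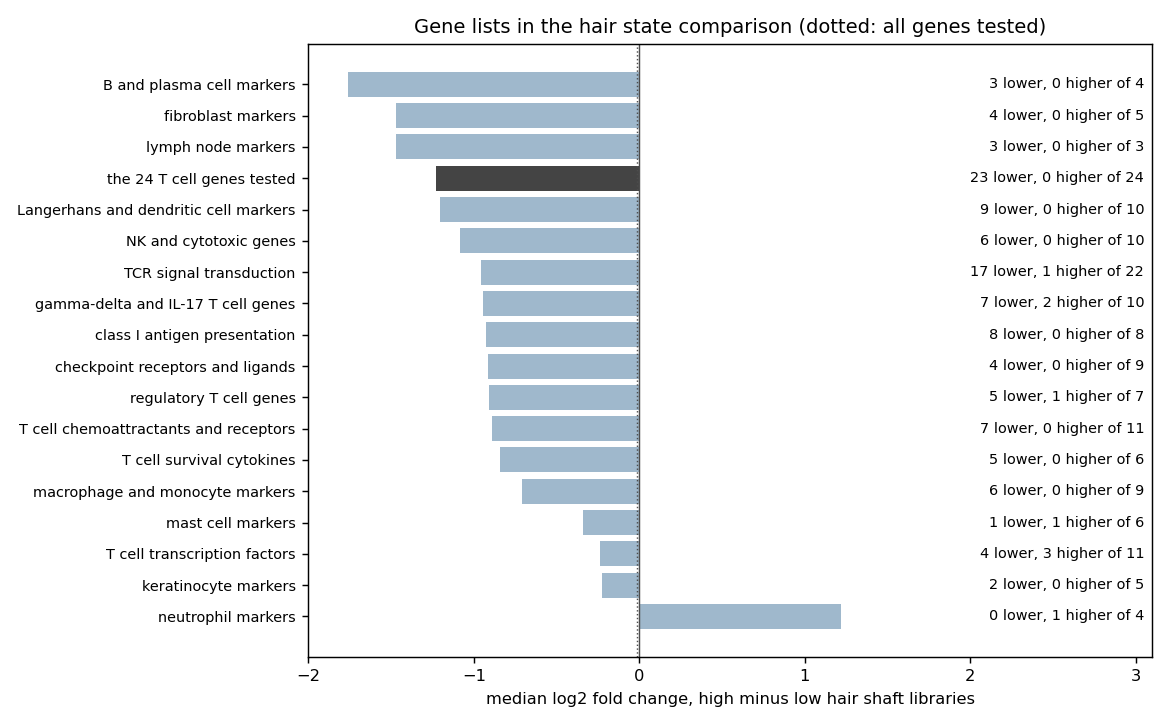
Median log2 fold change between high-hair and low-hair libraries (horizontal) for the 24 T cell genes (dark) and for lists of other genes (light), with the number called lower and higher of those tested, and a dotted line for all genes tested. The T cell genes, at -1.23, lie beside the dendritic cell list (-1.2) and have a less negative median than the fibroblast list (-1.47), while keratinocyte markers lie at -0.22.

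Between genotypes no T cell gene passed the test. In C-IKKα against WT limma called 0 of 24 genes, beside 0.345% of all tested genes called higher and 0% called lower. Unadjusted p values were below 0.05 for 2 of 24 genes, against 5.73% of all genes, and edgeR and DESeq2 also called 0. In this comparison 23 of 24 log2 fold changes were positive, with a median of 0.49 against 0.00 over all genes and a range of -0.24 to 2.37. With hair state as a term 19 were positive and 5 negative, with a median of 0.32, and in low-hair libraries alone 18 of 26 were positive and 8 negative, also with a median of 0.32. In N-IKKα against WT limma, edgeR and DESeq2 called 0, beside 0.00566% higher and 0% lower over all genes, and 1 gene, Trbc2, had an unadjusted p below 0.05, against 4.14% of all genes, with a log2 fold change of -0.66 ± 0.28 and an adjusted p of 0.880. In N-IKKα against C-IKKα the 3 tools called 0, beside 0.425% lower and 0.00566% higher over all genes, with 6 of 24 at an unadjusted p below 0.05 against 11.7% of all genes. There all 24 fold changes were negative, with a median of -0.57, but high-hair libraries are 3 of 6 in N-IKKα and 1 of 6 in C-IKKα. With hair state as a term 19 were negative and 5 positive, with a median of -0.16, and in low-hair libraries alone 14 of 26 were negative and 12 positive, with a median of -0.11. The last comparison shares its samples with the other 2, so the signs are not separate results.

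**Figure D4:**
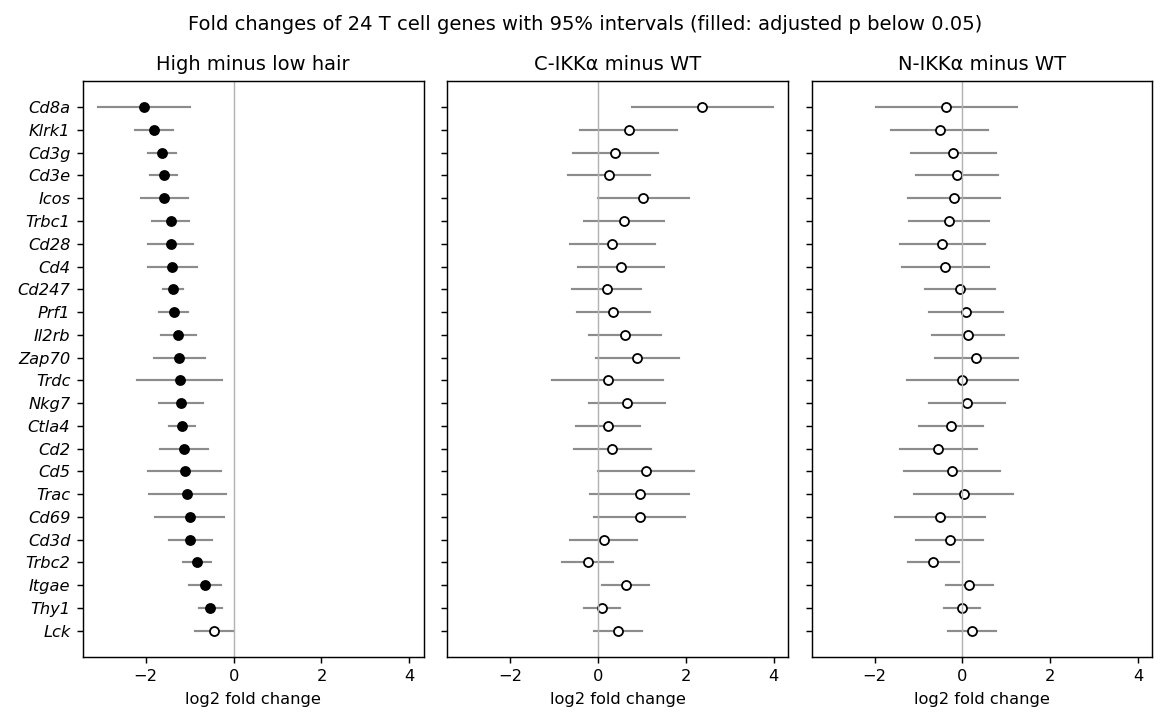
Log2 fold changes (horizontal) of the 24 T cell genes with 95% intervals, between hair states (left), C-IKKα and WT (middle) and N-IKKα and WT (right); filled points have an adjusted p below 0.05. In the left panel 23 of 24 points are filled, and in the other panels none is.

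Cd8a stood apart among the T cell genes in C-IKKα skin. Normalized counts were 4.03, 5.04, 13.1, 0, 1.17 and 10.8 in WT 1 to 6, 20.3, 0.932, 0, 6.16, 0 and 7.18 in N-IKKα 7 to 12, and 40.2, 14.7, 15.6, 22.4, 32.4 and 23.8 in C-IKKα 13 to 18. Each C-IKKα library was above each WT library, a pattern that 0.838% of all tested genes and no other T cell gene that passed the filter showed, while N-IKKα 7 lay among the C-IKKα libraries. Cd8a reached 10 normalized counts in 6 C-IKKα, 2 WT and 1 N-IKKα libraries, so it passed the filter through the group where it was high, and the share gives no support to the difference. The means were 5.70 ± 5.24 (SD, n = 6) in WT, 5.76 ± 7.79 in N-IKKα and 24.8 ± 9.87 in C-IKKα. The log2 fold change was 2.37 ± 0.76 in C-IKKα against WT, with an adjusted p of 0.443, and -2.73 ± 0.76 in N-IKKα against C-IKKα, with an adjusted p of 0.193. It was -0.36 ± 0.76 in N-IKKα against WT. With hair state and sex as terms, the fold against WT was 1.80 with an adjusted p of 0.202. These values rest on 0 to 39 reads per library, with 0 to 11 in WT. Cd8b1 had means of 2.98 ± 2.64 in WT, 2.38 ± 2.41 in N-IKKα and 7.68 ± 4.72 in C-IKKα, with overlap and an adjusted p of 0.886 between C-IKKα and WT when all genes were tested.

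The genes next in p were Itgae, Cd5 and Icos. Itgae ran from 98.8 to 197 normalized counts (median 138) in WT, from 104 to 229 (median 157) in N-IKKα and from 139 to 351 (median 238) in C-IKKα, with 4 C-IKKα libraries above the highest of WT. Its log2 fold change in C-IKKα against WT was 0.63 ± 0.25, with an unadjusted p of 0.0231 and an adjusted p of 0.731. Cd5 ran from 5.84 to 26.5 (median 10.1) in WT, from 2.84 to 36.1 (median 7.41) in N-IKKα and from 8.26 to 43.0 (median 30.7) in C-IKKα. Icos ran from 25.1 to 81.6 (median 46.6), from 12.3 to 88.0 (median 50.5) and from 35.9 to 166 (median 120) in the same order. Both overlapped between genotypes, with log2 fold changes of 1.09 ± 0.52 and 1.03 ± 0.50 and an adjusted p of 0.883 each.

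The pan-T and lineage genes overlapped between genotypes. Cd3e ran from 58.5 to 265 (median 207) in WT, from 54.0 to 278 (median 162) in N-IKKα and from 98.7 to 232 (median 199) in C-IKKα. The low values in each genotype were those of the high-hair libraries. Its log2 fold change in C-IKKα against WT was 0.25, with a 95% interval of -0.68 to 1.19. Cd4 had medians of 60.0, 52.1 and 97.7 normalized counts and ranges of 35.4 to 111, 17.0 to 107 and 45.9 to 161 in WT, N-IKKα and C-IKKα. Trac had medians of 7.00, 6.80 and 19.7 and ranges of 4.03 to 22.2, 2.09 to 30.5 and 6.43 to 34.9 in the same order. The log2 fold changes in C-IKKα against WT were 0.52 ± 0.47 for Cd4 and 0.95 ± 0.54 for Trac. Trdc had medians of 14.8, 25.3 and 14.0 and ranges of 5.71 to 28.9, 0.932 to 29.0 and 11.4 to 39.1, with a fold of 0.22 ± 0.60. All of these ranges overlapped between genotypes. Among the low cytotoxic genes, Gzmb had medians of 3.59, 2.96 and 6.91 and Ccl5 medians of 3.50, 6.33 and 9.36 normalized counts, with overlap in both.

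**Figure D5:**
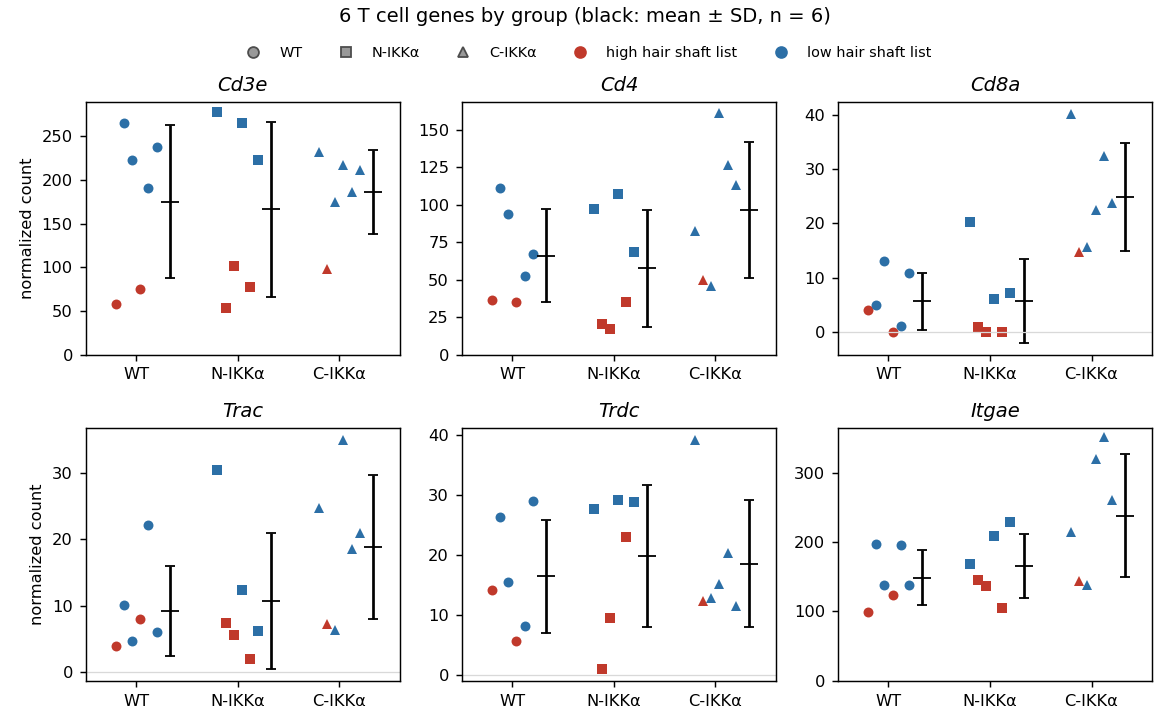
Normalized counts (vertical, linear) of 6 T cell genes in each mouse by genotype, with high-hair libraries in red, low-hair libraries in blue, and black bars for the mean ± SD of 6 mice. High-hair libraries are the low ones of Cd3e in each genotype, and C-IKKα libraries of Cd8a lie at 14.7 to 40.2, above all WT libraries.

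Ratios within a library set genes of T cell subsets against each other. In bulk skin they are not ratios of cells, and Cd4 can also come from macrophages and dendritic cells. The log2 ratio of Cd8a to Cd4 was -3.70 ± 1.12 (SD, n = 6) in WT, -3.67 ± 1.02 in N-IKKα and -1.86 ± 0.61 in C-IKKα. In C-IKKα 5 of 6 libraries were above the highest WT library, at -2.53. The difference between C-IKKα and WT was 1.84, with an exact two-sided permutation p of 0.00649 and an adjusted p of 0.0390. N-IKKα differed from C-IKKα by -1.82 with the same p and adjusted p, and from WT by 0.02 with an adjusted p of 1. The smallest p that 6 against 6 allows is 0.00216, and adjustment counted 12 tests, of which 9 could be made because Foxp3 was listed at 0. Cd8a was already known to be high in these C-IKKα libraries, so the ratio is no separate support. The call was lost without the high-hair libraries (1.64, adjusted p = 0.159), with a pseudocount of 5 (1.07, adjusted p = 0.156) and without any one of 9 of the 12 libraries compared. The log2 ratio of Trdc to Trac was 0.79 ± 1.35 in WT, 0.76 ± 1.78 in N-IKKα and 0.06 ± 0.85 in C-IKKα, and that of Gzmb to Cd3e -5.08 ± 1.04, -5.24 ± 1.07 and -4.56 ± 0.32. Their smallest adjusted p was 0.641.

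Among the 12 low-hair libraries alone, 4 of WT, 3 of N-IKKα and 5 of C-IKKα, 26 of the T cell genes could be tested. In C-IKKα against WT limma and edgeR called 0, beside 1.01% of 17864 genes called higher and 0.084% called lower, with 6 of 26 at an unadjusted p below 0.05 against 12.6% of all genes, while DESeq2 called Cd8a and Icos higher, beside 1.99% of all genes it called higher. Cd8a had a mean of 7.53 ± 5.43 (SD, n = 4) in WT and 26.9 ± 9.53 (SD, n = 5) in C-IKKα, a log2 fold change of 1.96 ± 0.54 with an adjusted p of 0.121. Icos had means of 59.9 ± 16.9 and 123 ± 47.2 and a fold of 0.96 ± 0.30, with an adjusted p of 0.177. Cd8a and Klrk1 did not overlap between these libraries, as was true of 2.54% of the 17667 genes tested in all libraries. Cd8a passed the filter over all libraries through C-IKKα, where it was high, so this share gives no support to its difference. Klrk1 ran from 63.1 to 75.8 (median 68.5) in WT and from 76.2 to 128 (median 123) in C-IKKα, a fold of 0.61 ± 0.20 with an adjusted p of 0.211. Itgae had a fold of 0.57 ± 0.23. Cd3e, with means of 229 ± 31.1 and 204 ± 23.6 and a fold of -0.16 ± 0.13, and Trbc2, with a fold of -0.36 ± 0.16, pointed the other way. The 4 CD3 and zeta chain genes lay between -0.16 and -0.05.

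Of the genes that draw T cells, Cxcl9 was higher in C-IKKα than in WT. Cxcl9, which encodes a ligand of CXCR3, a chemokine receptor that T cells carry, had 15.2 to 89.0 normalized counts in WT, 10.3 to 70.4 in N-IKKα and 145 to 656 in C-IKKα, without overlap between C-IKKα and the others. It rose by 3.80 ± 0.49 on the log2 scale, with an adjusted p of 0.00101, as the 1 called gene of 11 on the chemoattractant list. The related genes Cxcl10 and Cxcl11 were listed at 0. In the low-hair libraries alone Cxcl16, the ligand of CXCR6, was also called, with a log2 fold change of 1 ± 0.17. Class I antigen presentation genes had a median fold of 0.77 with 0 of 8 called in all libraries, and of 0.60 with 6 of 8 called higher in the low-hair libraries, among them Psmb8 (0.93 ± 0.20), Psmb9 (0.78 ± 0.14) and Tap1 (0.58 ± 0.11). Of the T cell survival list Il7 was called in the low-hair libraries, with a fold of 0.76 ± 0.17. In all libraries, 0 genes were called of 10 on the gamma-delta list (median 0.21), of 22 on the signal transduction list (median 0.30), of 7 on the regulatory list (median 0.55) and of 10 on the cytotoxic list (median 0.28). Their smallest unadjusted p values included Ptpn22, a phosphatase that restrains receptor signals, with a fold of 0.99 ± 0.32, and Ccr8, a receptor of skin-resident T cells, with 1.65 ± 0.64.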

How the data were processed

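Bulk RNA of back skin from 18 mice was used, 6 per group as the labels give them, each a separate mouse. Per the labels, total RNA was taken with TRIzol and RNeasy MinElute and sequenced as stranded mRNA libraries, paired-end, on a NovaSeq. The submitters' processing notes name featureCounts and the build GRCm39. No aligner, annotation, strand setting or scaling tool is named in the sources used here. The deposited signal is the authors' normalized count of each gene. Divided by 1 step per library, 100% of values were whole within 0.001, so reads were recovered, 11.1 to 15.7 M per library, and limma called 61 genes higher in C-IKKα than WT where edgeR on those reads called 55 and DESeq2 134 higher and 14 lower.

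Values were tested as log2(normalized count + 1) for 17667 genes with at least 10 in at least 6 libraries, with limma 3.58.1 in R 4.3.3 (a mean per group, 15 residual degrees of freedom, mean-variance trend), two-sided, Benjamini-Hochberg adjusted over all genes and called below 0.05. Fold changes are on that log2 scale, with moderated SE. They understate the change of low genes. Hair state was a hair list mean above 8, added as a term beside genotype; for low-hair libraries alone, genes needed 10 in at least 3 libraries. A library was read as male above 500 normalized counts of Ddx3y. Ratios used exact permutation tests. The model was tested on simulated data. edgeR 4.0.16 and DESeq2 1.42.0 on recovered reads, other pseudocounts, filters and scaling, hair and sex terms and leaving out each library were alternatives.

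The listed genes, the other lists and the tests were chosen with earlier results of these data known. Values of each library were fixed to be given for Cd3e, Trac, Cd4, Cd8a, Trdc, Foxp3, Gzmb, Ccl5, called genes and the 4 smallest p in C-IKKα against WT; any other gene of another list was named as called or among the 2 smallest p in C-IKKα against WT, and those listed at 0, Chuk and the 4 genes whose promoters are printed were chosen after their values were seen. Exon lengths, overlaps and transcripts came from GENCODE M21 (GRCm38), matched by identifier for 33 of 33 genes. Some genes of the other lists are not reported here.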

Additional observations from a re-analysis of the deposited data

Results flagged for a closer look

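In C-IKKα, library 14 stood below the other 5 libraries by more than the spread among those allows for 6 T cell genes. It had 98.7 normalized counts of Cd3e against 174 to 232 in the others, 76.7 of Cd3g against 141 to 177, and 131 of Cd247 against 239 to 326. The same held for the cytotoxic genes, with 111 of Prf1 against 194 to 220, 31.8 of Nkg7 against 54.2 to 69.8, and 30.2 of Klrk1 against 76.2 to 128. This library is the 1 high-hair library of its group. Of 84 checks, 6 were met, and chance alone meets about 1 in 20. All 6 came from this 1 mouse, so they are not separate results.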

How the results depend on the processing

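The count of T cell genes called between hair states was 23 of 24 and was also 23 under other pseudocounts, TMM scaling, edgeR, DESeq2 and other hair cut-offs. It was 16 of the 17 tested with a filter of 50, 20 of 28 with no filter, 20 of 24 with a sex term, and between 19 and 24 with 1 library left out, but it was 15 in female mice alone. No genotype comparison of all libraries called a T cell gene under any alternative run. In low-hair libraries, C-IKKα against WT gave 2 with DESeq2 and 0 to 2 with 1 library left out, the 2 being Icos and Itgae without C-IKKα 15. The Cd8a to Cd4 ratio of C-IKKα against WT was 1.07 with a pseudocount of 5, 1.64 without high-hair libraries and 1.55 to 2.08 with 1 library left out; for N-IKKα against C-IKKα it was -0.84, -1.18 and -2.11 to -1.51. Differences near 0 changed sign between N-IKKα and WT: Cd8a to Cd4 was -0.12 with a pseudocount of 0.5 and -0.27 to 0.33 with 1 library left out, Trdc to Trac 0.0508 with a pseudocount of 5, 0.14 without high-hair libraries and -0.47 to 0.55 with 1 left out, and Gzmb to Cd3e -0.44 to 0.14 with 1 left out. The fold of Cd3e in C-IKKα against WT was -0.0124 with a hair term, -0.16 without high-hair libraries and -0.0185 to 0.42 with 1 library left out, and that of Trdc -0.076 with hair and sex terms and -0.013 to 0.42. In N-IKKα against WT, the fold of Cd3e was 0.14 with a hair term, 0.15 with sex added, 0.16 without high-hair libraries and -0.40 to 0.14 with 1 left out, and that of Cd8a 0.0406 in edgeR, 0.0282 in DESeq2, 0.66 without high-hair libraries and -0.87 to 0.0096. Over all genes, C-IKKα against WT gave 61 higher and 0 lower calls in limma, 134 and 14 in DESeq2, 138 and 7 with a hair term, 153 and 10 without high-hair libraries and 38 and 0 with a filter of 50, and N-IKKα against C-IKKα 75 lower in limma, 171 in DESeq2, 117 with a hair term and 47 with a filter of 50; the cause was not tested. No paired analysis was possible because the groups share no replicate numbers. Genes with under 10 normalized counts, Cd8a and Trdc among them in some libraries, are limited by depth.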
